A study of Mus musculus with 8 samples.

Results

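A group of 40 genes of the endoplasmic reticulum (ER), the secretory pathway and the unfolded protein response were examined in cultured bone marrow stromal cells of mice with acute myeloid leukaemia. They were taken by name from a list of ER chaperones, folding enzymes, stress sensors, degradation factors, translocon subunits and transport proteins. Of these, 39 occur among the 15994 rows of the MLL-AF9 table and all 40 among the 55421 rows of the AE9a table. The missing gene in the MLL-AF9 table is Derl3, which had 2 and 3 counts in the AE9a columns used. Recipient mice with intact Id1 (Id1+/+) or lacking it (Id1-/-) received leukaemia carrying 1 of 2 fusion genes, either MLL-AF9, which joins KMT2A to MLLT3, or AE9a, a short splice form of AML1-ETO. Cells were taken 6 weeks later, so every group came from leukaemic marrow. Id1 encodes an inhibitor of basic helix-loop-helix transcription factors, and the study concerns its role in the marrow that surrounds the leukaemia. Whole marrow and bone were plated, RNA was taken once adherent cells were seen, and each of the 4 groups has 2 labelled samples. The labels number these samples without naming animals, so p-values measure only the spread between libraries.

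The ER folds and modifies proteins that leave the cell. Its chaperones and disulfide isomerases hold new chains until they are folded, the translocon threads the chains in, COPII coats carry cargo to the Golgi, and COPI coats and KDEL receptors bring escaped ER residents back. Misfolded chains are pulled out and degraded in the cytosol. When unfolded protein builds up, IRE1 (Ern1), ATF6 and PERK start the unfolded protein response. IRE1 splices Xbp1 mRNA, ATF6 is cut in the Golgi to release a transcription factor, and PERK slows translation and favours ATF4. Stromal cells and osteoblasts lean on this machinery to export collagen. Counts per gene do not show Xbp1 splicing, ATF6 cleavage or protein.

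The MLL-AF9 libraries held 17864812 to 22510346 counts, and the AE9a columns used held 20967896 (Id1+/+) and 18126803 (Id1-/-). In AE9a the 2 columns of each genotype differ by a constant in nearly all genes with counts. Id1+/+ replicate 1 is replicate 2 plus 134, in all 40 genes studied, and Id1-/- replicate 2 is replicate 1 plus 17, in 39 of them. Each AE9a genotype was therefore 1 library, and no test was made within AE9a. Id1 itself was at 34.6 and 28.8 CPM (a library-scaled count, here scaled by the trimmed mean of M-values, TMM) in the MLL-AF9 Id1+/+ libraries and at 11.6 and 12 CPM in Id1-/-. In AE9a it was at 19.6 and 4.28 CPM. Macrophage markers made up 2.42% to 2.79% of counts in the MLL-AF9 libraries, against 0.0786% to 0.468% for fibroblast and matrix markers, although the cultures are labelled as mesenchymal cells. Most of that macrophage sum was Lyz2 (235105 to 340837 counts), so the shares do not give numbers of cells. In such mixed cultures, more cells of a type and more RNA per cell cannot be told apart.

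Many ER chaperone genes carry an ER stress element (ERSE) near their start, a site bound by ATF6 with the factor NF-Y and by XBP1. In 300-base promoter windows from RefSeq (GRCm38.p6, 250 bases before to 50 after the start site), found for 31 of the 40 genes, the ERSE (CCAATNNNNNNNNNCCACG, either strand) was matched in 9 genes. It lay in 26.5% of their 34 windows and in 0.119% of all 32851 windows. The matches are shown because they link genes of different folding roles, and each is turned to the strand of the motif, with its outer boxes in capitals.

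Hspa5: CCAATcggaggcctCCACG
Hsp90b1, distal: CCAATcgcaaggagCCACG
Hsp90b1, proximal: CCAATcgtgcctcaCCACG
Calr: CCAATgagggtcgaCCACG
Canx: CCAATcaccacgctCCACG
Pdia6: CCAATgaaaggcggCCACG
Dnajc3: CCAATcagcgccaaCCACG
Creld2: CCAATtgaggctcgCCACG
Syvn1: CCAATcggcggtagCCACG
Derl3: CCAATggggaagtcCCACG

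The shorter ERSE-II (ATTGGNCCACG) was found in Herpud1 and Dnajb11, in 5.88% of the windows of the genes studied and 0.0365% of all windows. The box CCACG alone, which is part of both elements, was in 70.6% of the windows studied and 32.8% of all. The core of the unfolded protein response element (UPRE, TGACGTGG), a site bound by XBP1 and ATF6 whose last 5 bases are CGTGG, the reverse complement of that box, was in Kdelr3 and Sec24d, or 5.88% against 0.676%. The promoters of 4 genes that were higher in Id1-/- are shown as the 120 bases before the first annotated start, with matches in capitals on whichever strand they lie. They stand for the ERSE (Hsp90b1 at chr10:86705510-86705629, minus strand, and Pdia6 at chr12:17266425-17266544, plus strand), the ERSE-II (Herpud1 at chr8:94386309-94386428, plus strand) and the UPRE core on the opposite strand (Kdelr3 at chr15:79516288-79516407, plus strand).

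Hsp90b1: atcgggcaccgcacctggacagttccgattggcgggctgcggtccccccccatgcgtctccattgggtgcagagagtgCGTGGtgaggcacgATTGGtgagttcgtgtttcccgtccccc
Pdia6: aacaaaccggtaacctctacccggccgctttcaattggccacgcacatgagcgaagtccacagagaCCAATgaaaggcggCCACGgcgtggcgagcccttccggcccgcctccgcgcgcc
Herpud1: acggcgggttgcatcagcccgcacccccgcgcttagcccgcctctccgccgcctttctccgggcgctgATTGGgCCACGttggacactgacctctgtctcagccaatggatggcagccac
Kdelr3: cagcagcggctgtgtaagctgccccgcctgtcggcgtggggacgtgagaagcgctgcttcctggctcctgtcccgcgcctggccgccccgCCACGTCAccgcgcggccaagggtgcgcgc

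**Figure D1:**
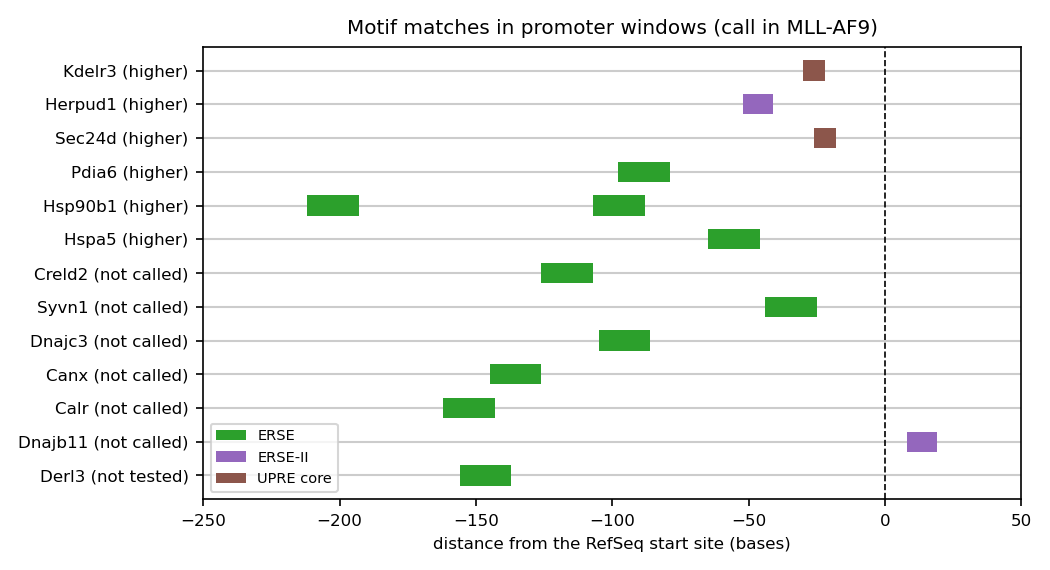
Position of each motif match in the promoter window, as the distance in bases from the RefSeq start site (dashed line at 0), for the 13 genes with a match, ordered by their MLL-AF9 fold change with the call in brackets. Of the 8 tested genes with an ERSE, 3 were higher and 5 were not called.

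A match did not go with one outcome. Of the 8 tested genes with an ERSE, Hspa5, Hsp90b1 and Pdia6 were higher in Id1-/- and 5 were not called. Of the 2 genes with an ERSE-II, Herpud1 was higher and Dnajb11 had a log2 fold of -0.09. Both genes with the UPRE core, Kdelr3 and Sec24d, were higher. Among all tested genes with a promoter window, 9 were higher, 2 lower and 19 not called. A match is a description of letters and shows no binding.

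In the MLL-AF9 libraries, 13 of the 39 tested genes were higher in Id1-/- and 2 were lower, by the edgeR quasi-likelihood test with Benjamini-Hochberg (BH) adjusted p under 0.05. That is 33.3% higher and 5.13% lower, where 17.2% of all 14137 genes tested were higher, 10.6% lower and 27.8% called in either direction. The genes were chosen with earlier results of these data known, so this comparison is a description and not a test. The higher genes were the chaperones Hspa5, Hsp90b1, Hyou1 and Manf, the isomerases Pdia4, Pdia6, Fkbp10 and Fkbp14, the transcription factors Creb3l1 and Creb3l2, and Herpud1, Sec24d and Kdelr3. The lower genes were Edem1 and Derl2. The median log2 fold of the 39 was 0.17, against 0.00 for all genes, with a range of -0.28 to 1.16. Both Id1-/- libraries lay above both Id1+/+ libraries for 25 of the 39 genes and below for 5, against 33.5% above and 31.5% below for all genes. Of the 15 calls, 9 held under all 9 alternative settings and left-out libraries (Pdia4, Pdia6, Fkbp10, Fkbp14, Creb3l1, Creb3l2, Herpud1, Sec24d and Kdelr3). With 1 library left out, the median log2 fold of the genes studied ran from 0.13 to 0.16 and that of all genes from -0.001 to 0.012. The number of calls over all genes changed in these fits too. Library totals in place of TMM moved the median of all genes from 0.00 to 0.11. On that scale 22 of the 39 were higher, a larger share than the 22.2% of all genes. Of the 39, 0 were lower, where 4.23% of all genes were.

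**Figure D2:**
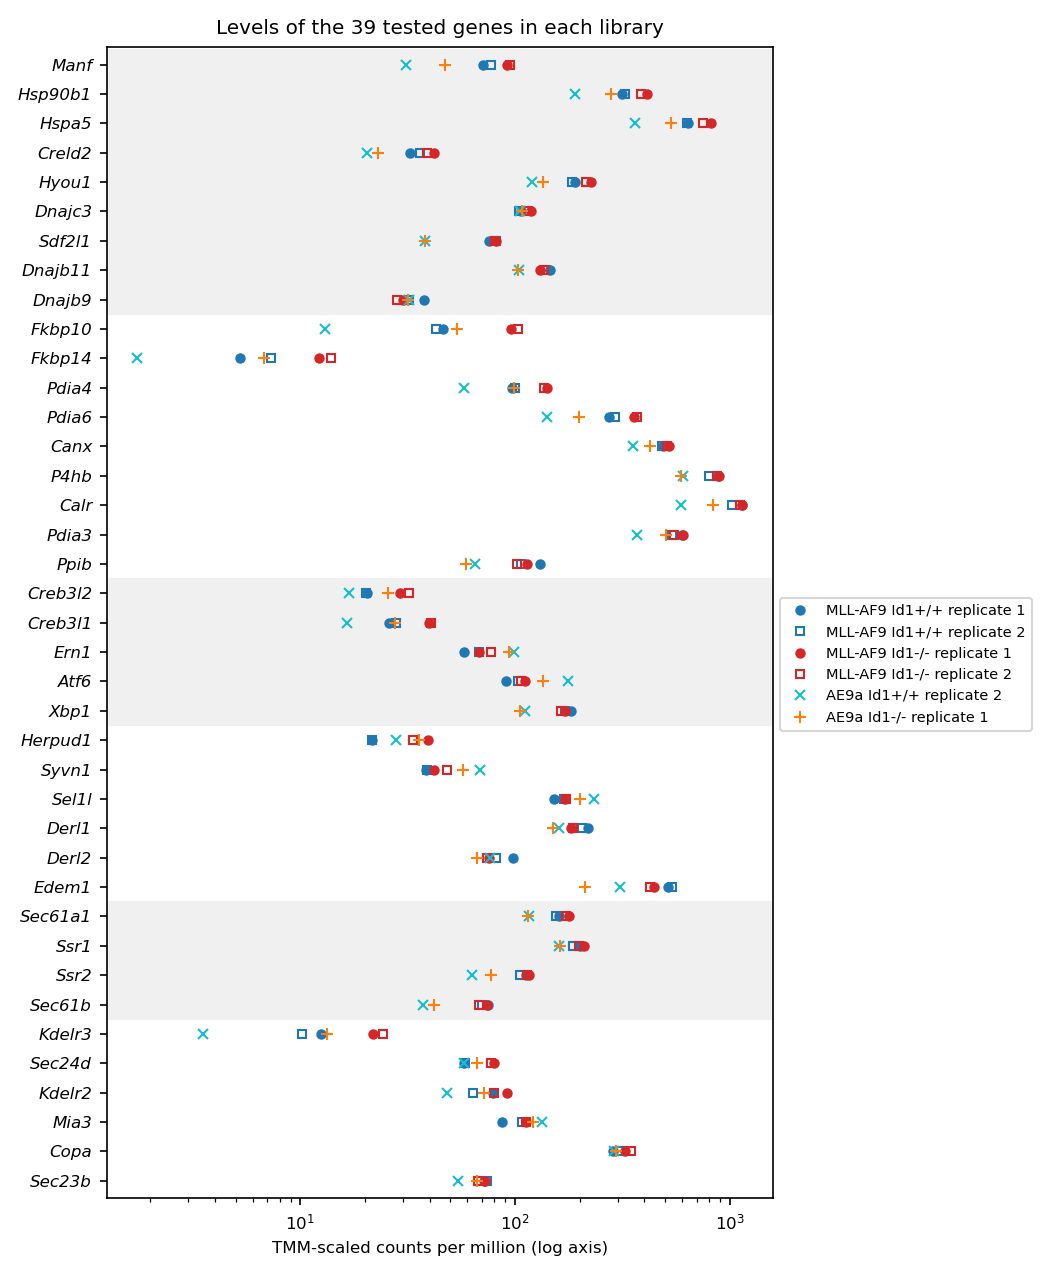
Levels of the 39 tested genes in TMM-scaled CPM (log axis), 1 symbol per library, grouped by role in shaded bands. The 2 models were scaled separately. Calr, P4hb and Hspa5 lie at the right and Fkbp14 and Kdelr3 at the left, and the red Id1-/- symbols of Fkbp10, Fkbp14 and Kdelr3 stand clear of the blue Id1+/+ ones.

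Levels between genes were compared as CPM per kilobase of exon in the GENCODE M21 annotation of GRCm38. By that measure the calcium-binding lectin chaperone Calr was highest in Id1+/+ (376 CPM per kilobase), before the disulfide isomerases P4hb (295) and Pdia3 (181) and the chaperone Hspa5 (150). In Id1-/- Hspa5 (185.4) and Pdia3 (184.6) were level. The lowest were the ER prolyl isomerase Fkbp14, at 1.51 in Id1+/+ and 3.16 in Id1-/-, and Creb3l2 at 2.80 and 4.19.

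Of 9 chaperones and co-chaperones, 4 rose in Id1-/- (44.4%, against 17.2% of all genes tested), each by less than 1.5-fold. Hspa5 (ENSMUSG00000026864.13, chromosome 2, 34771970 to 34777547, plus strand) encodes BiP, the Hsp70 of the ER that also holds the stress sensors inactive. It was at 636 and 630.1 CPM in the Id1+/+ libraries and at 819.9 and 748.2 CPM in Id1-/-. Both Id1-/- libraries were higher, and the gap between them was wider than that between the Id1+/+ libraries. The mean rose from 633 ± 4.13 to 784 ± 50.7 CPM (SD, n = 2), a log2 fold of 0.31 (SE 0.08, edgeR BH-adjusted p = 0.00832). Without Id1-/- replicate 1 the log2 fold was 0.24 and the call was lost (adjusted p = 0.148).

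Hsp90b1, the Hsp90 of the ER (chromosome 10, 86690209 to 86705509), measured 315 and 326 CPM in Id1+/+ against 412 and 386 CPM in Id1-/-. The groups did not overlap, and the log2 fold was 0.31 (SE 0.08, edgeR adjusted p = 0.00672; 0.11 without Id1-/- replicate 1). Of its exonic bases 15.7% also belong to other annotated transcripts. Manf, a small secreted protein that binds BiP, measured 70.8 and 76.9 CPM in Id1+/+ against 91.5 and 94.6 CPM in Id1-/-. Its log2 fold of 0.33 (adjusted p = 0.00791) was not called without Id1+/+ replicate 1 (adjusted p = 0.078) or Id1-/- replicate 2 (0.0754). Hyou1, a nucleotide exchange factor for BiP, rose from 187 ± 4.85 to 220 ± 8.41 CPM (SD, n = 2; edgeR adjusted p = 0.0333), a call that was lost without any 1 of the 4 libraries (adjusted p from 0.0718 to 0.25). The remaining 5 chaperone genes were not called, with log2 folds from -0.26 to 0.25. They include the BiP co-chaperones Dnajb9 (-0.26), Dnajb11 (-0.09) and Dnajc3 (0.15), the co-chaperone component Sdf2l1 (0.05) and the thiol oxidoreductase-like Creld2 (0.25). Dnajb9 was called lower without Id1+/+ replicate 2 (-0.39, adjusted p = 0.0231), and Dnajc3 and Creld2 were called higher with library totals (0.0255 and 0.0195). In AE9a, Manf was the member of this group past 1.5-fold, while Hspa5 went from 361 to 532 CPM, a log2 ratio of 0.56 with a 95% counting interval from 0.51 to 0.60, just under that threshold.

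Among the 9 folding enzymes, 4 rose (44.4%, against 17.2% of all genes tested), and the prolyl isomerases Fkbp10 and Fkbp14 rose most. Fkbp10 (ENSMUSG00000001555.10, chromosome 11, 100415697 to 100424824, plus strand) encodes FKBP65, a prolyl isomerase needed for type I procollagen maturation. It measured 46.2 and 42.8 CPM in Id1+/+ against 96.1 and 102.8 CPM in Id1-/-. The groups lay far apart, and the mean was 2.24-fold higher in Id1-/-. The log2 fold was 1.16 (SE 0.09, edgeR adjusted p = 9.82e-08). Fkbp14, a related isomerase of collagen chains, measured 5.24 and 7.3 CPM in Id1+/+ against 12.2 and 14 CPM in Id1-/-, with a log2 fold of 1.06 (SE 0.17, adjusted p = 0.000298). Neither group overlapped the other for these genes.

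Pdia4, a disulfide isomerase with several thioredoxin domains, measured 96.5 and 100.1 CPM in Id1+/+ against 141 and 136 CPM in Id1-/-. The libraries of each genotype lay close together, and the log2 fold was 0.50 (SE 0.08, edgeR adjusted p = 0.00023). Pdia6, which also restrains IRE1, rose from 284 ± 12.8 to 365 ± 8.35 CPM (SD, n = 2; edgeR adjusted p = 0.00247). The remaining 5 of this group were not called. These were the lectin chaperones Calr (log2 0.06) and Canx (0.07), their partner isomerase Pdia3 (0.03), P4hb (0.06), which is the beta subunit of collagen prolyl hydroxylase as well as an isomerase, and the cyclophilin Ppib (-0.14), of whose exonic bases 25% overlap the gene Snx22 on the other strand. Ppib was called lower without Id1+/+ replicate 2 (-0.29, adjusted p = 0.0351). The strand setting of the counting is not given in the sources used here.

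In AE9a the same collagen isomerases led. Fkbp10 had 254 counts in Id1+/+ and 1042 in Id1-/-, or 13 and 53.7 CPM, a log2 ratio of 2.04 (95% counting interval 1.85 to 2.25). Fkbp14 had 34 and 131 counts, a ratio of 1.90 (1.40 to 2.55). Pdia4 went from 58 to 99.3 CPM (0.77). Calr and Pdia3, which were not called in MLL-AF9, had AE9a ratios of 0.48 and 0.44, while P4hb had -0.03.

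**Figure D3:**
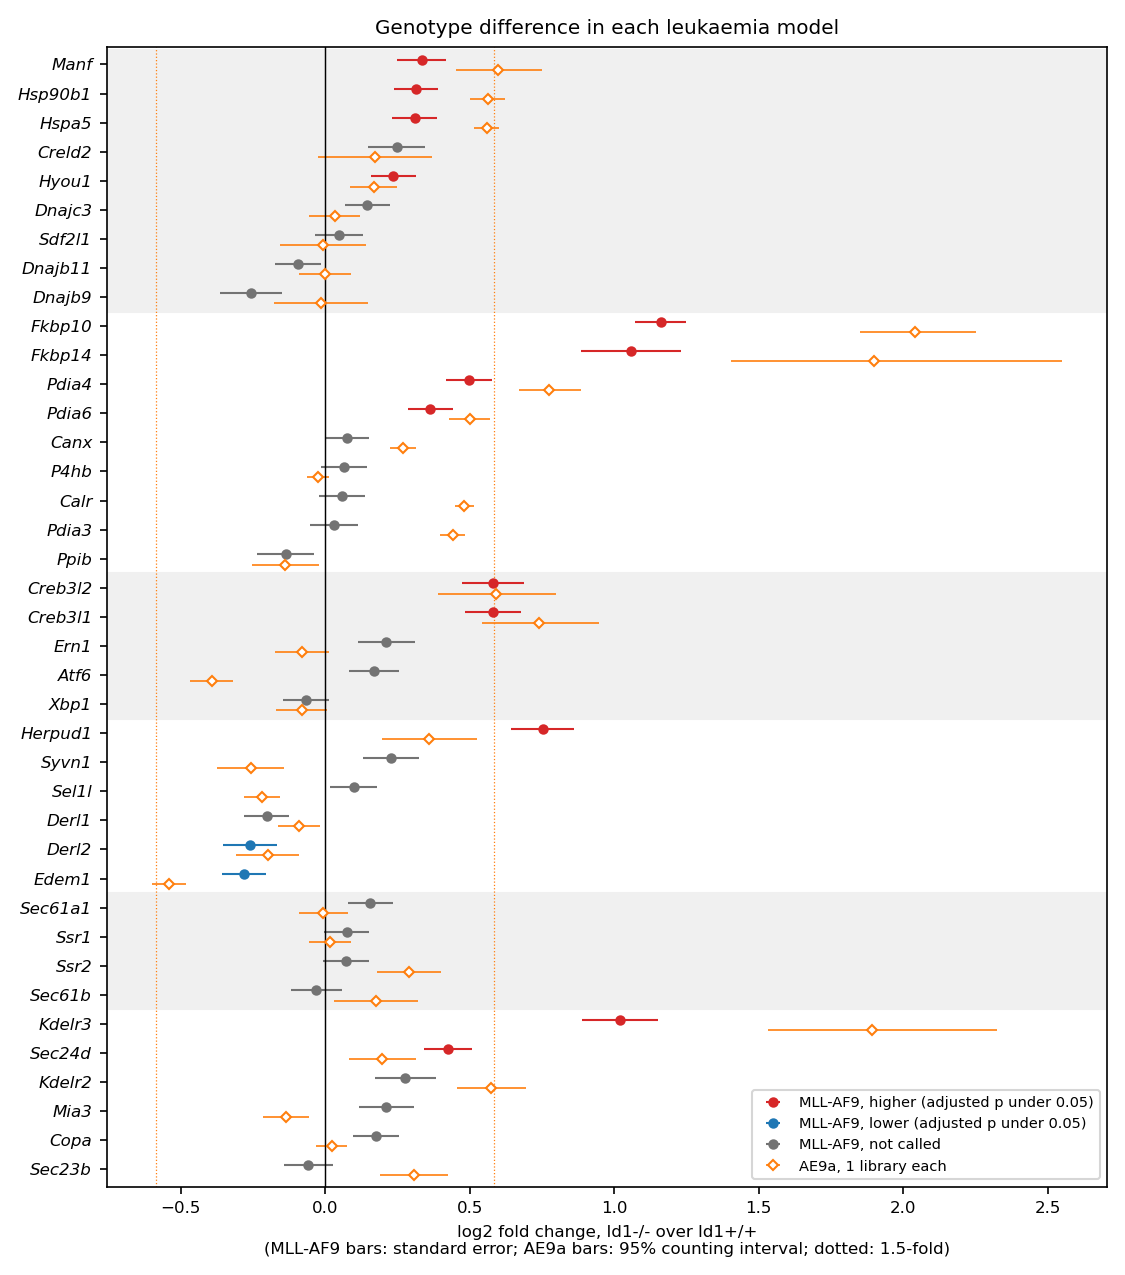
Log2 fold change of Id1-/- over Id1+/+ for the 39 tested genes, grouped by role. Circles show MLL-AF9 with standard errors (n = 2 libraries per genotype) and diamonds show AE9a with 95% counting intervals (1 library per genotype). Fkbp10, Fkbp14 and Kdelr3 lie furthest to the right in both models, and Atf6 and Syvn1 lie on opposite sides of 0.

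The stress sensors Ern1 and Atf6 and the factor Xbp1 were not called, while the ER-bound factors Creb3l1 and Creb3l2 rose. Ern1, the IRE1 kinase and nuclease, measured 57.7 and 67.5 CPM in Id1+/+ against 67.9 and 77.3 CPM in Id1-/-. The groups nearly touched, and the log2 fold of 0.21 was not called (edgeR adjusted p = 0.123). Atf6 measured 90.5 and 103.3 CPM in Id1+/+ against 111 and 106 CPM in Id1-/- (log2 0.17, adjusted p = 0.162). With library totals both passed the threshold (adjusted p = 0.0351 and 0.0368), and Ern1 also did without Id1+/+ replicate 2 (log2 0.32, adjusted p = 0.041). Xbp1, the factor that IRE1 activates, measured 181 and 170.1 CPM in Id1+/+ against 171 and 164 CPM in Id1-/-. These values overlapped, with a log2 fold of -0.07 (adjusted p = 0.571).

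Creb3l1 encodes OASIS, an ER-bound transcription factor that in mice drives type I collagen secretion in osteoblasts. It measured 25.9 and 27.8 CPM in Id1+/+ against 39.6 and 40.7 CPM in Id1-/-. Creb3l2, which encodes BBF2H7 and in mouse cartilage drives the COPII gene Sec23a, measured 20.5 and 20.3 CPM in Id1+/+ against 29.1 and 31.9 CPM in Id1-/-. Both had clearly separated groups and a log2 fold of 0.58 (SE 0.10 and 0.11, edgeR adjusted p = 0.000366 and 0.000803). In AE9a they were also past 1.5-fold, at 0.74 (0.54 to 0.95) and 0.59 (0.39 to 0.80). The other 3 genes of this group had negative AE9a ratios, with Atf6 at -0.39 (-0.47 to -0.32) and Ern1 and Xbp1 at -0.08. With library totals Ern1 and Xbp1 turned positive (both 0.12), and Atf6 was at -0.20.

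Of 6 measured genes of ER-associated degradation, 1 rose (16.7%, close to the 17.2% of all genes tested) and 2 fell (33.3%, against 10.6%). Herpud1 (ENSMUSG00000031770.16, chromosome 8, 94386438 to 94395377, plus strand), a membrane scaffold of the degradation complex, measured 21.6 and 21.5 CPM in Id1+/+ against 39.2 and 33.4 CPM in Id1-/-. The log2 fold was 0.75 (SE 0.11, edgeR adjusted p = 8.85e-05). Edem1, a lectin that hands misfolded glycoproteins to the degradation machinery, measured 515 and 539 CPM in Id1+/+ against 442 and 425 CPM in Id1-/-. Its log2 fold was -0.28 (SE 0.08, adjusted p = 0.0121). The call was lost with library totals (-0.17, adjusted p = 0.103) and without Id1-/- replicate 1 (0.0638) or replicate 2 (0.117). Derl2, a channel subunit, measured 97.8 and 81.7 CPM in Id1+/+ against 76 and 73.8 CPM in Id1-/-, just past the threshold (log2 -0.26, adjusted p = 0.0497). The call was lost in 6 of 9 alternatives, namely no filter (0.0509), DESeq2 (0.0723), library totals (0.267) and the fits lacking Id1+/+ replicate 1 (0.4) or either Id1-/- library (0.151 and 0.205). Derl1 (-0.20), the ubiquitin ligase Syvn1 (0.23) and its adaptor Sel1l (0.10) were not called. Derl1 was called lower without Id1+/+ replicate 2 (adjusted p = 0.0352) and Syvn1 higher with library totals (0.0212). In AE9a, Edem1 went from 308 to 212 CPM (-0.54, -0.60 to -0.48), and 5 of the 6 measured members of this group had a negative ratio, with Herpud1 at 0.36. With library totals Derl1 turned positive (0.11), and Sel1l (-0.02), Syvn1 (-0.06) and Derl2 (-0.002) showed almost no difference. Edem1 was at -0.34 on that scale and Herpud1 at 0.56.

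None of the 4 translocon genes was called by edgeR or DESeq2, and in the edgeR fit 0 had an unadjusted p under 0.05. Sec61a1, the pore-forming subunit, measured 159 and 155 CPM in Id1+/+ against 179 and 172 CPM in Id1-/- (log2 0.16, edgeR adjusted p = 0.148; 0.0174 with library totals). The translocon-associated subunit Ssr1 measured 199.96 and 187 CPM in Id1+/+ against 209 and 198 CPM in Id1-/-, and Ssr2 measured 112 and 106 CPM against 116 and 114 CPM. Both had a log2 fold of 0.07, and the small subunit Sec61b had -0.03. Their AE9a ratios ran from -0.01 to 0.29, all within 1.5-fold.

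Of 6 transport genes, Kdelr3 and Sec24d rose (33.3%, against 17.2% of all genes tested) and 4 were not called. Kdelr3 (ENSMUSG00000010830.8, chromosome 15, 79516411 to 79527739, plus strand), a receptor that returns proteins with a KDEL end from the Golgi, measured 12.4 and 10.2 CPM in Id1+/+ against 21.7 and 24.3 CPM in Id1-/-. Both Id1-/- libraries lay well above both Id1+/+ ones, with a log2 fold of 1.02 (SE 0.13, edgeR adjusted p = 3.14e-05). Sec24d, a cargo adaptor of the COPII coat whose loss disturbs collagen export in fish and humans, measured 58.1 and 58.4 CPM in Id1+/+ against 79.4 and 77 CPM in Id1-/- (log2 0.42, SE 0.08, adjusted p = 0.0014). Kdelr2 measured 78.9 and 63.5 CPM in Id1+/+ against 92.1 and 80.2 CPM in Id1-/-, a log2 fold of 0.28 that was not called (adjusted p = 0.0612), though it was with library totals (0.0159) or with Id1+/+ replicate 1 dropped (0.0125). Mia3 (TANGO1, which loads procollagen into COPII carriers; 0.21), the COPI subunit Copa (0.17) and the COPII subunit Sec23b (-0.06) were not called either. Mia3 was called higher without Id1+/+ replicate 2 (0.36, adjusted p = 0.0104) and with library totals (0.0348), and Copa with library totals (0.0151). In AE9a, Kdelr3 had 69 and 259 counts, a ratio of 1.89 (1.53 to 2.33), Kdelr2 was at 0.57, and Sec24d at 0.20.

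Genes of the same pathways outside the 40 were counted from lists, to be read against the 17.2% higher and 10.6% lower among all genes tested. The lists, too, were chosen with earlier results of these data known. Of 26 other ER folding genes, 9 were higher (34.6%) and 3 lower (11.5%, close to all genes; 1 lower with library totals or without Id1-/- replicate 1). Serpinh1, the collagen chaperone HSP47, measured 291 and 270.1 CPM in Id1+/+ against 696 and 752 CPM in Id1-/- (log2 1.37). The prolyl isomerase Fkbp9 rose by 1.49 and the collagen prolyl 3-hydroxylase P3h1 by 0.83 on the log2 scale. Of 34 other COPII and COPI genes, 9 were higher and 2 lower (0 lower with library totals, without Id1+/+ replicate 1 or without Id1-/- replicate 1, 1 without Id1-/- replicate 2 and 4 without Id1+/+ replicate 2), with Sec23a at 0.67, Copz2 at 0.81 and the COPII scaffold Sec16a at 0.36 (adjusted p = 0.0734 without Id1-/- replicate 2). The higher count fell to 5 without Id1+/+ replicate 1 or Id1-/- replicate 1 and to 2 without Id1-/- replicate 2.

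Of 14 genes in the PERK, ATF4 and CHOP list, 7 were higher (50%, against 17.2% of all genes) and 0 lower by edgeR, and 1 was lower by DESeq2. The glutathione-degrading Chac1 rose from 1.03 ± 0.349 to 7.03 ± 0.393 CPM (SD, n = 2), Vldlr by 2.27 and the asparagine synthetase Asns by 1.30 on the log2 scale. The kinase Eif2ak3 (PERK) itself measured 25.8 and 27.5 CPM in Id1+/+ against 29 and 27 CPM in Id1-/- (log2 0.07). The transcription factors Atf4 (-0.08) and Ddit3, which encodes CHOP (-0.07), were not called (edgeR adjusted p = 0.502 and 0.721). In AE9a, 4 of the 14 were at least 1.5-fold higher and 1 lower, with a median ratio of -0.04. Among all AE9a genes kept, 17.3% were higher and 7.64% lower. Of 13 genes in a joint fit of both models, 5 had an interaction past the threshold, where 10.3% of 15086 genes did. That fit holds no AE9a spread. Chac1 had an AE9a ratio of 0.84, while Atf5 (0.35 in MLL-AF9 and -0.65 in AE9a) and Ppp1r15a (0.63 and -0.44), named after their values were seen, differed in sign.

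Of 19 other degradation genes, 0 were higher and 3 lower, namely Aup1 (-0.42), Rnf5 (-0.36) and Edem2 (-0.28). Without Id1-/- replicate 1 only Aup1 of these 3 kept its call (Rnf5 adjusted p = 0.0664, Edem2 0.166), and Edem2 also lost it without Id1+/+ replicate 1 (0.124) or Id1-/- replicate 2 (0.0648). Of 31 other translocon and oligosaccharyltransferase genes, 0 were higher and 5 lower, led by the signal peptidase subunits Sec11c (-0.38) and Spcs1 (-0.34) and by Srp14 (-0.28), a subunit of the signal recognition particle. Spcs1 lost its call without Id1+/+ replicate 1 (adjusted p = 0.0804) or Id1-/- replicate 2 (0.0801), and Srp14 without Id1-/- replicate 1 (0.0969) or 2 (0.085). With library totals this became 5 higher and 1 lower. It was 2 lower without Id1+/+ replicate 1, 3 without Id1-/- replicate 1 and 1 without Id1-/- replicate 2. Of 23 cytosolic and mitochondrial chaperones, 3 were higher (13%, below the 17.2% of all genes) and 0 lower. These were the mitochondrial Hspd1 (0.51), its partner Hspe1 (0.39) and the protease Lonp1 (0.26), the last not called by DESeq2 (adjusted p = 0.0761) nor with Id1+/+ replicate 1 (0.291) or either Id1-/- library (0.228 and 0.0918) dropped. In AE9a, 22 of the 23 had a positive ratio, with a median of 0.36 against -0.01 for all genes kept. Of the 23, 5 were at least 1.5-fold higher, where 17.3% of all genes kept were.

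**Figure D4:**
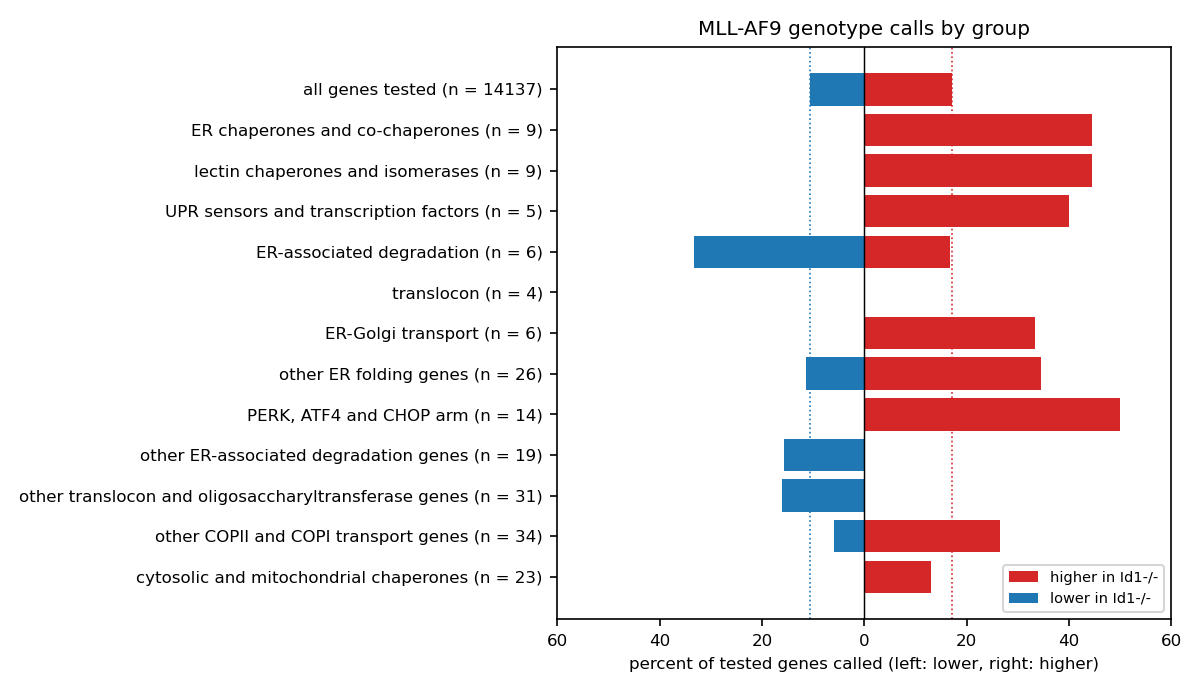
Percent of tested genes called higher (right) or lower (left) in Id1-/- in the MLL-AF9 libraries, by role group of the 40 genes and by list of other pathway genes, with all 14137 genes at the top and as dotted lines. Folding, transport, PERK-arm and sensor and transcription factor groups extend past the red dotted line at 17.2%. The translocon genes, within and outside the 40, and the degradation genes outside the 40 have no bar on the right.

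In AE9a, 7 of the 39 genes kept (10 counts and a mean of 1 CPM or more) were at least 1.5-fold higher in Id1-/- and 0 were at least 1.5-fold lower, where 17.3% of 12730 genes were higher and 7.64% lower. The share of the 39 is thus close to that of all genes. The 7 were Manf, Pdia4, Fkbp10, Fkbp14, Creb3l1, Creb3l2 and Kdelr3, each also called higher in MLL-AF9. At 2-fold 3 remained (Fkbp10, Fkbp14 and Kdelr3), and with library totals there were 13. The share of all genes at these 2 settings is not given here. The median ratio of the 39 was 0.17, against -0.01 for all genes kept. With library totals these medians were 0.37 and 0.19. The sign was the same in both models for 29 of the 39 genes (74.4%), against 65.1% of the 12344 genes measured in both.

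Whether the genotype difference itself differed between the models was tested in a joint edgeR fit of the 6 libraries, under the assumption that the spread seen in MLL-AF9 also holds for the unreplicated AE9a libraries. Of the 39 genes, 3 had an interaction with BH-adjusted p under 0.05, where 10.3% of 15086 genes did. The number was 2 without Id1+/+ replicate 1 or Id1-/- replicate 2, and 6 without Id1+/+ replicate 2. The SE and p hold no AE9a spread, so they do not show how far another AE9a pair would differ. The Fkbp10 ratio was larger in the AE9a pair by 0.80 on the log2 scale (SE 0.17, adjusted p = 0.00886). Atf6 was at 177 and 135 CPM in the AE9a libraries while its MLL-AF9 levels ran from 90.5 to 111 CPM, an interaction of -0.65 (SE 0.15, adjusted p = 0.0129; 0.104 with library totals). Syvn1 went from 68.5 to 57.3 CPM in AE9a and from 38.6 ± 0.294 to 45.2 ± 4.45 CPM in MLL-AF9 (SD, n = 2), an interaction of -0.57 (SE 0.17, edgeR adjusted p = 0.0378). Library totals ended that call (0.194), as did dropping either Id1+/+ library (0.0797 for replicate 1 and 0.0644 for replicate 2) or Id1-/- replicate 2 (0.14).

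**Figure D5:**
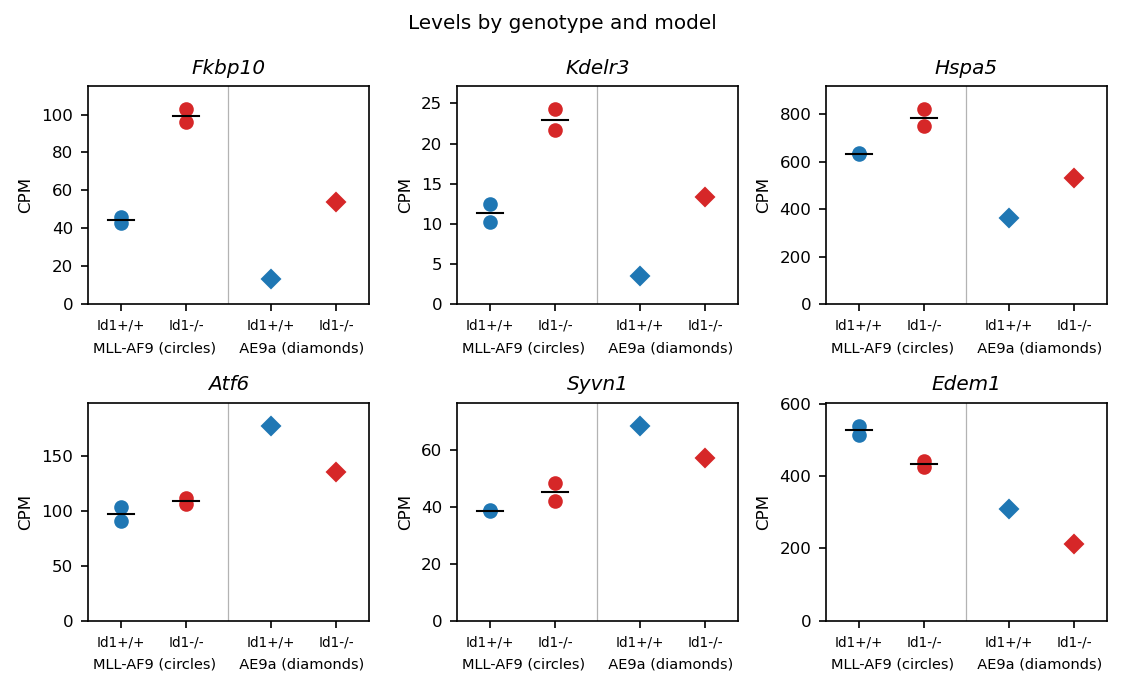
Levels of 6 genes in CPM by genotype and leukaemia model. Circles are MLL-AF9 libraries with their mean as a line, diamonds are the single AE9a libraries, and the models were scaled separately. Fkbp10, Kdelr3 and Hspa5 lie higher in Id1-/- and Edem1 lower in both models, while Atf6 and Syvn1 differ in sign.

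Markers of several cell types moved with these genes, to be read against 17.2% higher and 10.6% lower among all genes tested in MLL-AF9. Fibroblast and matrix markers made up 0.0786% and 0.0907% of counts in MLL-AF9 Id1+/+ and 0.431% and 0.468% in Id1-/-, and 9 of 11 were called higher and 0 lower. In AE9a their share was 0.0216% and 0.132%. The collagen chain Col1a1 was at 181 and 225 CPM in MLL-AF9 Id1+/+ and at 1213 and 1372 CPM in Id1-/-. Of 4 osteoblast markers tested, 3 were higher, with shares of 0.0067% and 0.0065% against 0.0142% and 0.0148%. Most of the Id1+/+ sum was Runx2, which was not called (998 and 1023 counts against 993 and 1071 in Id1-/-). Of 10 macrophage markers, 2 were higher and 5 lower (2 lower with library totals or without either Id1-/- library, and 3 without Id1+/+ replicate 1), with shares of 2.79% and 2.58% against 2.49% and 2.42%. The mannose receptor gene Mrc1 (log2 0.68, edgeR adjusted p = 2.2e-05) and the complement gene C1qa (0.55, 6.74e-05) were the higher ones, and Cd68 (-0.49, 0.000377) had the smallest adjusted p among the lower ones. The lysozyme gene Lyz2 was lower by a log2 fold of -0.25 (edgeR adjusted p = 0.044), a call that library totals ended (0.207), as did dropping Id1+/+ replicate 1 (0.305), Id1-/- replicate 1 (0.116) or Id1-/- replicate 2 (0.245). Neutrophil and promyelocyte markers were lower in 8 of 9 cases in MLL-AF9 and past 1.5-fold higher in 5 of 7 in AE9a. The AE9a counts of those 5 were low, from 7 to 97 in single libraries. S100a8, at 137 counts in Id1+/+ and 117 in Id1-/-, was the 1 of the 7 with a negative ratio. None of 3 endothelial markers tested in MLL-AF9 was called. In AE9a, Pecam1 was past 1.5-fold higher (33 counts in Id1+/+ and 70 in Id1-/-) and Kdr past 1.5-fold lower (590 and 368).

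Plasma cells express the folding machinery at high levels, so their markers were read too. In MLL-AF9 their share was 0.0229% and 0.0228% in Id1+/+ and 0.0398% and 0.0407% in Id1-/-. Of 6 tested markers on the list of 9, 4 were higher (66.7%, against 17.2% of all genes tested). Irf4 (edgeR adjusted p = 0.142) and Prdm1 (0.269) were not called. Pou2af1, at 0 to 9 counts, was not tested, and Mzb1 and Tnfrsf17 do not occur among the MLL-AF9 genes. Jchain was at 3.23 and 3.61 CPM against 10.4 and 9.37 CPM. Most of the summed marker counts came from Sdc1, which other cells also express, with 3657 and 3823 counts in Id1+/+ and 4663 and 4887 in Id1-/-. The immunoglobulin gene Igkc had 257 and 304 counts against 977 and 978, a larger ratio than the sum. In AE9a the share was 0.0211% and 0.0156%, with Mzb1 at 0 counts in both columns and Jchain at 2 and 4. There too Sdc1 (3579 and 2295 counts) and Prdm1 (754 and 406) made up most of the sum and its fall, while Ighm had 52 and 72 counts and Igkc 0 and 8. Summed, the studied genes took 0.744% and 0.739% of all counts in MLL-AF9 Id1+/+ and 0.886% and 0.85% in Id1-/-, and 0.51% and 0.664% in AE9a. What part these changes in cell type markers have in the gene differences was not tested.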

How the data were processed

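RNA of adherent marrow stromal cultures was sequenced in 8 labelled samples. The authors deposited raw counts per gene name in 1 table for each leukaemia model. Per the submitters' processing notes, featureCounts 2.0.1, HISAT2 2.2.1, DESeq2 1.32.0, fastp 0.22.0 and the mm10 build were used, with no order given. Other deposited values, in the columns of AE9a Id1+/+ replicate 1 and Id1-/- replicate 2, are another column plus a constant and were not used. For MLL-AF9, filterByExpr chose the genes, TMM scaled the libraries, and genotypes were compared by two-sided quasi-likelihood tests in edgeR 4.0.16 (R 4.3.3), BH-adjusted over all genes tested. AE9a log2 ratios used genes with at least 10 counts, a prior count of 2 and exact binomial 95% intervals, which cover counting error only. The interaction came from a joint fit of names unique in both tables. Alternatives were library totals, DESeq2 size factors, DESeq2 1.42.0, no filter, the replicate number as a block, and each library left out. The fits were tested on simulated data. Promoters came from RefSeq and loci from GENCODE M21, both GRCm38. The planned look at protein ends was not made.

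The 40 genes and all lists were chosen with earlier results of these data known. Values are printed for every sensor and transcription factor, for Hspa5, and for the 3 genes with the smallest adjusted p in each other role group and pathway list, with Eif2ak3, Atf4 and Ddit3 always. Among markers the rule names Jchain, Mzb1, Col1a1 and Lyz2. Any other gene given with values was named after its values were seen, to account for every gene studied or to show what carries a list. In AE9a, Ddit3 has a further row with 0 counts. It is left out of the joint fit.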

Additional observations from a re-analysis of the deposited data

Results flagged for a closer look

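A total of 3 of the 39 genes were singled out because the test of the genotype difference between the leukaemia models passed the threshold. That is a smaller share than the 10.3% of all 15086 genes. Atf6 and Syvn1 did not pass the threshold with library totals. The log2 difference of AE9a minus MLL-AF9 was 0.797 for Fkbp10, -0.652 for Atf6 and -0.574 for Syvn1. Each AE9a genotype is 1 library, so the test holds no AE9a spread and rests on that of the MLL-AF9 libraries. No group had the 4 samples needed to look for a sample far from the others.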

How the results depend on the processing

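With library totals in place of TMM, 13 of the 39 genes kept passed 1.5-fold in AE9a. The share of all AE9a genes on that scale is not given here. In MLL-AF9, 22 of the 39 genes tested were higher and 0 lower, where 22.2% of all genes were higher and 4.23% lower. On that scale 1 other ER folding gene was lower, 5 other translocon genes were higher and 1 lower, 0 other COPII and COPI genes were lower, 6 cytosolic and mitochondrial chaperones were higher and 2 macrophage markers were lower. DESeq2 called 1 of the genes studied lower and 1 PERK-arm gene lower, no filter gave 1 lower, and DESeq2 size factors gave 4 COPII and COPI genes lower. The 2-fold threshold left 3 of the genes studied in AE9a, also without the share of all genes. The causes were not tested.

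The replicate numbers are not shown to pair the libraries, since the deviations of same-numbered libraries correlated at only 0.069. With the replicate block, 19 of the genes studied were higher and 4 lower, while calls over all 14137 genes rose too, from 2434 to 2956 higher and from 1502 to 2237 lower. With it 1 PERK-arm gene was lower, 2 other translocon genes were higher and 5 COPII and COPI genes lower.

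Leaving out 1 MLL-AF9 library at a time gave 10 to 14 higher and 0 to 5 lower genes among those studied. The same range was 1 to 2 for other ER folding genes lower, 0 to 1 for the PERK arm lower, 1 to 3 for other degradation genes lower, 1 to 4 for other translocon genes lower, 2 to 7 for COPII and COPI genes higher and 0 to 4 lower, 2 to 4 for macrophage markers lower, and 2 to 6 for interactions. No called single gene among those studied or named from lists changed sign under the settings run for it, but the balance of the other translocon list turned with library totals, as given above. Among single genes studied, 311 MLL-AF9 values kept their side of the threshold, 23 gained a call and 17 lost one. With 2 libraries per genotype in MLL-AF9 and 1 in AE9a, the number of libraries limits the precision, and the AE9a intervals hold counting error only.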
